A study of Mus musculus with 6 samples.

Results

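The IFI200 genes, also called PYHIN genes, encode a family of interferon-inducible proteins, several of which sense DNA. The 8 genes described here, *Aim2*, *Ifi203*, *Ifi204*, *Ifi205*, *Ifi207*, *Ifi209*, *Ifi211* and *Mndal*, are the rows of the deposited count table that carry these symbols, 8 of 54532 genes. Another 6 annotated family genes in the table, *Ifi202b*, *Ifi206*, *Ifi208*, *Ifi213*, *Ifi214* and the pseudogene *Ifi203-ps*, are given beside them. The counts come from lung tissue of 3 GR+/+ and 3 GRdim/dim mice, one poly(A)-captured library per mouse. In GRdim/dim mice a point mutation of the glucocorticoid receptor gene, present in all cells, impairs dimerization of the receptor, and GR+/+ mice are their wildtype littermates. All 6 mice, 10 to 16 weeks old and of a mixed 129/SvEv and C57BL/6 background, underwent hemorrhagic shock (HS). Arterial pressure was held at 35 mmHg for 1 h, and resuscitation lasted 4 h. Of the GR+/+ mice 2 were female and 1 was male, and of the GRdim/dim mice 1 was female and 2 were male. The IFI200 cluster differs between inbred strains, and which strain's copy each mouse carried cannot be read from counts per gene, which limits what the level of a family gene in a single lung can mean. Lungs without shock are not part of these libraries, so the comparison is between genotypes after HS only. A point mutation leaves no mark in counts per gene, so the counts cannot check the genotype labels.

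IFI200 proteins share a HIN domain, which binds double-stranded DNA, and most carry an N-terminal pyrin domain, through which they bind partner proteins. AIM2 recruits the adaptor ASC (*Pycard*) to activate caspase-1, which processes IL-1β and IL-18. The p204 protein, encoded by *Ifi204*, acts upstream of the adaptor STING, which turns on type I interferons. Many family genes are expressed in immune cells and are themselves induced by interferon.

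The family lies in one cluster. On chromosome 1 of the mouse genome build GRCm38, the 8 members spanned chr1:173350879-174031810, 681 kb that also hold the other 6 family genes. This stretch overlapped 8 further annotated genes, of which 1, the cell adhesion gene *Cadm3*, had enough reads to be tested (log2 fold change of -0.24, GRdim/dim against GR+/+, edgeR adjusted *p* = 0.926). Of the 8 members, 7 had a promoter in the RefSeq table (GRCm38.p6, 250 bases before to 50 bases after an annotated start), as did 5 of the other 6. *Ifi204* and *Ifi203-ps* had none there and were not searched for any motif. The core of the interferon-stimulated response element (ISRE), searched as GAAANNGAAA on both strands, was present in the promoters of 5 of the 7 members, *Ifi203*, *Ifi205*, *Ifi207*, *Ifi211* and *Mndal*. It was present in 4 of the other 5, *Ifi206*, *Ifi208*, *Ifi213* and *Ifi214*. For comparison, 3.99% of all 27025 genes in the table held it in any of their promoters, and 10 of the 17 promoter-matched genes on a list of interferon-stimulated genes did. The stretches around the core are shown because they fall into 3 groups by likeness. Each is written in the direction of its gene, with the core in capitals.
Mndal: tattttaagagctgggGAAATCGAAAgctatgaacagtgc
Ifi203: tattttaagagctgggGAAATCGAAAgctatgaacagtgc
Ifi211: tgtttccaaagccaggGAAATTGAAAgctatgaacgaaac
Ifi205: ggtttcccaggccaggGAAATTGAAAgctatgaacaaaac
Ifi207: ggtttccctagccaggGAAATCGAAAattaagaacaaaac
Ifi206: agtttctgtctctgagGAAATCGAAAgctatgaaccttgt
Ifi213: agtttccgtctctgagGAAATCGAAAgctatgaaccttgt
Ifi208: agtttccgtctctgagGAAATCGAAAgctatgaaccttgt
Ifi214: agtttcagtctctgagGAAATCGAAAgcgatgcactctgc
Ifi209: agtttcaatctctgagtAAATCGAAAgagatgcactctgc

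The stretches lie on the minus strand at chr1:173880200-173880239 (*Mndal*), chr1:173942504-173942543 (*Ifi203*), chr1:173913060-173913099 (*Ifi211*), chr1:174031866-174031905 (*Ifi205*), chr1:173741827-173741866 (*Ifi207*), chr1:173491335-173491374 (*Ifi206*), chr1:173599322-173599361 (*Ifi213*) and chr1:173536013-173536052 (*Ifi214*). Those of *Ifi208* (chr1:173673591-173673630) and *Ifi209* (chr1:173630764-173630803) lie on the plus strand. *Mndal* and *Ifi203*, whose genes overlap, were identical over all 40 bases. *Ifi211*, *Ifi205* and *Ifi207* shared 32 to 36 of 40 bases with one another, and *Ifi206*, *Ifi213*, *Ifi208* and *Ifi214* shared 34 to 40. Between these groups 23 to 29 bases were the same. The *Ifi209* promoter has no exact core. Its stretch most like that of *Ifi214* shared 37 of 40 bases and departs from the core by 1 substitution, G1T, counted from the first base of the core with the core's base first. In 8 of the 9 genes with a core on the strand of the gene, its first base lies at positions -79 to -35 from the annotated start, and in *Ifi205* at -134. These matches describe letters and do not show binding.

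**Figure D1:**
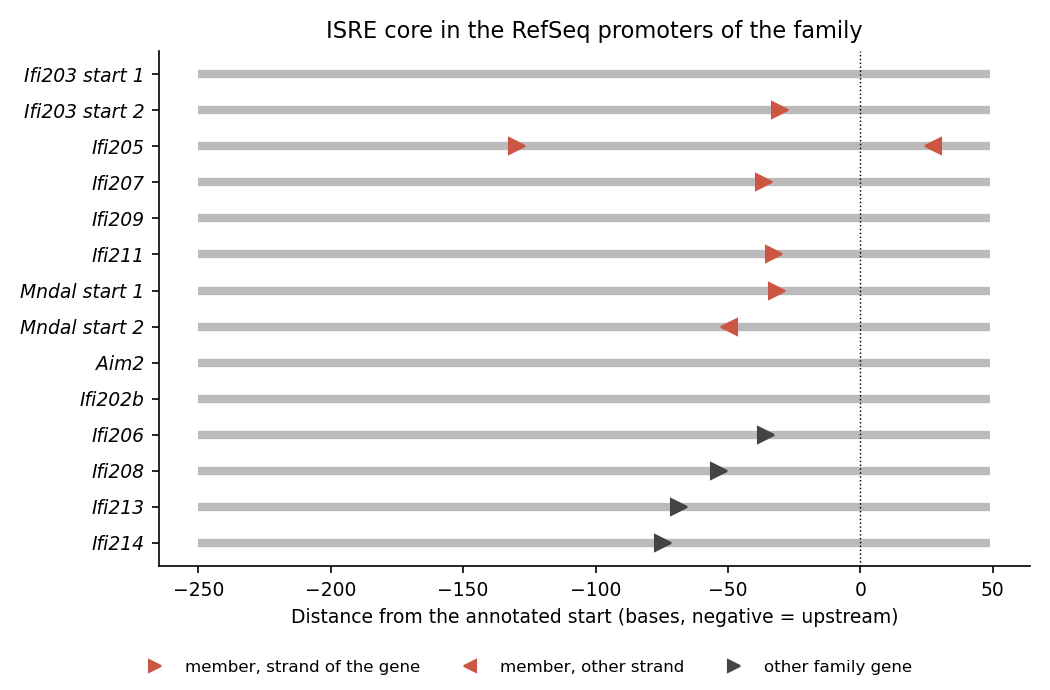
Position of the ISRE core in the 14 RefSeq promoters of 12 IFI200 family genes. The x axis is the distance in bases from the annotated start and each grey bar is one promoter of 300 bases. Arrowheads mark a core and point right when it lies on the strand of the gene. In 8 of 9 genes the core on the strand of the gene starts at -79 to -35, and *Aim2*, *Ifi209*, *Ifi202b* and start 1 of *Ifi203* show none.

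Other motifs were searched in the same way. The interferon-gamma-activated sequence (GAS, TTCNNNGAA) was in the promoters of 9.55% of all genes, in none of the 7 members and in *Ifi202b*. The full glucocorticoid response element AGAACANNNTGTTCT was in 3 of all promoters and in none of the family genes searched. The inverted-repeat negative element, CTCC and GGAGA with 0 to 2 bases between, was in the promoters of 2% of all genes and in none of the family genes searched. *Ifi204* had no promoter to search. The absence of a match says only that these letters are not in these windows.

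Members of the family were higher on average in lungs of GRdim/dim mice after HS, with a wide spread among the 3 GRdim/dim lungs. Levels are CPM, read counts relative to the library total, with TMM scaling between libraries. Summed over the 8 members, they were 81.9, 109 and 65.7 CPM in GR+/+ replicates 1, 2 and 3 and 257, 166 and 95.1 CPM in GRdim/dim replicates 1, 2 and 3. The means were 85.4 ± 21.8 and 173 ± 81.3 (SD, n = 3 each), a ratio of 2.02. The sums overlapped, because GRdim/dim replicate 3 was below GR+/+ replicate 2. In lung tissue, more cells that express these genes and more RNA per cell cannot be told apart.

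All 8 members were tested, among 16568 genes. Genes were called differentially expressed at an adjusted *p* under 0.05 and a log2 fold change beyond 0.5. edgeR's quasi-likelihood test called 0 of 8 members (0.169% of all genes tested were called, in either direction). At an unadjusted *p* under 0.05, 5 of 8 were higher in GRdim/dim, *Ifi203*, *Ifi204*, *Ifi207*, *Ifi209* and *Mndal*, where 4.91% of all genes were. None was lower, where 4.68% of all genes were. DESeq2 called 2 of 8 higher, *Ifi204* and *Mndal*, where it called 0.817% of the 16150 genes with an adjusted *p*. All 8 log2 fold changes were above 0, as were 50.9% over all genes, and their median was 0.99, against 0.01 over all genes. In 1 of 8, *Ifi204*, every GRdim/dim library was above every GR+/+ library, as in 7.77% of all genes. In none were they apart with GRdim/dim lower, as in 7.05% of all genes. When genes with low counts were not removed before the edgeR fit, so that 31368 genes entered, 5 of 8 members passed the thresholds, the same 5 as above, and 0.813% of all genes were called higher. With all libraries, the calls of *Ifi204* and *Mndal* thus changed with the tool and with the filter, and those of *Ifi203*, *Ifi207* and *Ifi209* with the filter only. Without GRdim/dim replicate 3, DESeq2 also called *Ifi203*, *Ifi207* and *Ifi209*. Over 12 alternatives, the adjusted *p* ranged from 0.000583 to 0.617 for *Ifi204*, from 5.26e-05 to 0.569 for *Mndal* and from 0.000991 to 0.713 for *Ifi203*. It ranged from 0.0235 to 0.655 for *Ifi207* and from 0.0189 to 0.716 for *Ifi209*, in each case lowest without the filter. DESeq2 fits with a library left out are not among the 12.

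**Figure D2:**
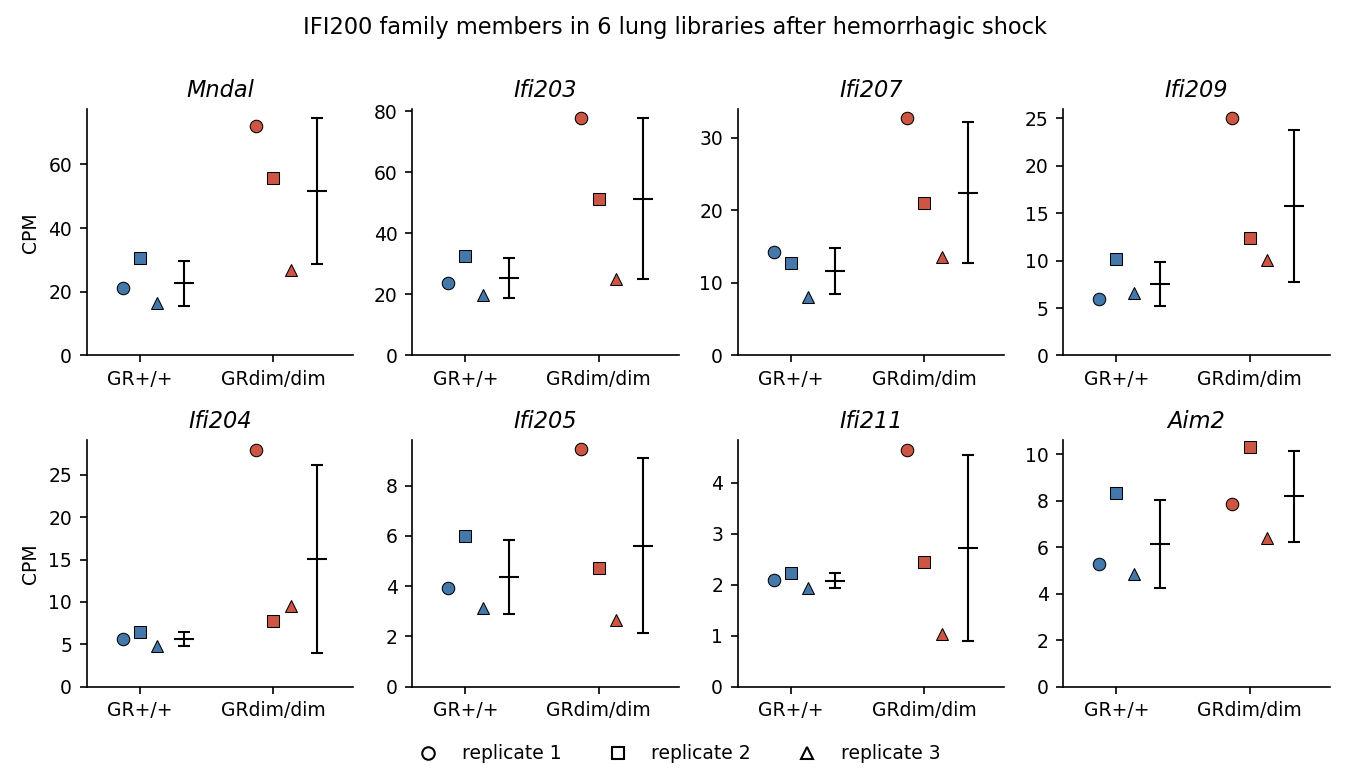
CPM of each of the 8 members (y axes from 0) in GR+/+ (blue) and GRdim/dim (red) lungs. Each point is one lung, its shape the replicate number, and the black bar is the mean with SD (n = 3). GRdim/dim replicate 1 is the highest point in every panel but that of *Aim2*, and the genotypes are fully apart for *Ifi204* only.

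*Ifi204* (ENSMUSG00000073489, chr1:173747293-173766943, minus strand), the p204 sensor upstream of STING, had the largest fold change among the members. Its level was 5.68, 6.48 and 4.80 CPM in GR+/+ and 27.9, 7.73 and 9.56 CPM in GRdim/dim replicates 1 to 3. Every GRdim/dim lung was above every GR+/+ lung, and replicate 1 alone held 61.7% of the GRdim/dim total. The log2 fold change was 1.42 (SE 0.45), with an adjusted *p* of 0.343 by edgeR and 0.036 by DESeq2. A two-sided exact permutation test over the 6 libraries gave *p* = 0.1, the smallest value that 3 lungs against 3 allow. Without GRdim/dim replicate 1 the log2 fold change was 0.62 and DESeq2 gave an adjusted *p* of 0.658. Of the 31-base windows of *Ifi204* transcripts, 34% also occur in other genes, 18.9% in *Ifi211*, so some reads could be assigned to either.

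*Mndal* (ENSMUSG00000090272, chr1:173849126-173942491, minus strand), a nuclear member named after the human myeloid cell nuclear differentiation antigen, had the highest level per kilobase in both genotypes. It stood at 21.2, 30.5 and 16.5 CPM in GR+/+ and 71.9, 55.8 and 26.8 CPM in GRdim/dim replicates 1 to 3. GRdim/dim replicates 1 and 2 were above all GR+/+ lungs, and replicate 3 lay within their range. The log2 fold change was 1.19 (SE 0.35), with an adjusted *p* of 0.301 by edgeR and 0.0276 by DESeq2. Without GRdim/dim replicate 1 it was 0.87, with an adjusted *p* of 0.315 by DESeq2.

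*Ifi203* (ENSMUSG00000039997, chr1:173920407-173942672, minus strand), which encodes the nuclear protein p203, varied in the same way. It stood at 23.6, 32.5 and 19.8 CPM in GR+/+ and 77.8, 51.2 and 25.0 CPM in GRdim/dim replicates 1 to 3. The log2 fold change was 1.02 (SE 0.36, edgeR adjusted *p* = 0.411, DESeq2 adjusted *p* = 0.103). The last GRdim/dim lung was close to the GR+/+ mean of 25.3 CPM. Across the 6 libraries its log2 level had a Pearson *r* of 0.98 with that of *Mndal*. Exons of these genes overlap by 37 bases on the same strand. Of the 31-base windows of *Ifi203* transcripts, 4.71% also occur in *Mndal*, and 8.77% of those of *Mndal* occur in *Ifi203*. Counting all other genes, 21.6% of the *Ifi203* windows (15.9% in *Ifi203-ps*) and 28.7% of the *Mndal* windows are shared. Part of the reads of both genes may thus not be told apart from those of other genes. How such reads were counted is not known. Together they made 54.5% to 64.6% of the members' CPM in each library.

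*Ifi207* and *Ifi209* encode less studied members. *Ifi207* (ENSMUSG00000073490, chr1:173723427-173741747, minus strand) stood at 14.2, 12.7 and 8.07 CPM in GR+/+ and 32.7, 21.0 and 13.5 CPM in GRdim/dim replicates 1 to 3, a log2 fold change of 0.95 (SE 0.33, edgeR adjusted *p* = 0.408). *Ifi209* (ENSMUSG00000043263, chr1:173630917-173647928, plus strand) stood at 5.92, 10.2 and 6.61 CPM and at 25.0, 12.4 and 10.1 CPM, a log2 fold change of 1.07 (SE 0.36, edgeR adjusted *p* = 0.386). In both genes 2 of 3 GRdim/dim lungs exceeded all GR+/+ lungs, and the lowest GRdim/dim lung fell just short of the highest GR+/+ lung. DESeq2 called neither, with adjusted *p* of 0.138 and 0.107. Without GRdim/dim replicate 1 the log2 fold change was 0.58 for both and 0.60 for *Ifi203*. Of the 31-base windows of *Ifi209* transcripts, 46.8% also occur in *Ifi214*, so reads could be assigned to either. *Ifi214* was far lower, at 0.179 to 1.51 CPM.

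*Ifi205* and *Ifi211* differed between genotypes by less than the spread between lungs. *Ifi205* (ENSMUSG00000054203, chr1:174011998-174031810, minus strand), which encodes p205, stood at 3.94, 6.00 and 3.14 CPM in GR+/+ and 9.44, 4.74 and 2.65 CPM in GRdim/dim replicates 1 to 3. *Ifi211* (ENSMUSG00000026536, chr1:173896345-173913046, minus strand) stood at 2.09, 2.22 and 1.94 CPM and at 4.64, 2.45 and 1.03 CPM. In both genes GRdim/dim replicate 1 was the highest and replicate 3 the lowest of all 6 lungs. The log2 fold changes were 0.37 (SE 0.45) and 0.39 (SE 0.49), with edgeR adjusted *p* of 0.868 and 0.875. Without GRdim/dim replicate 1 both turned, to -0.22 and -0.23. *Ifi211* rested on 16 to 86 counts per library. Of its 31-base windows, 78.9% occur in other genes, 49.5% in *Ifi205* alone, so these 2 genes may not be independent measurements.

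*Aim2* (ENSMUSG00000037860, chr1:173350879-173466040, plus strand), the inflammasome sensor at the far end of the cluster, differed little. It stood at 5.26, 8.33 and 4.86 CPM in GR+/+ and 7.87, 10.3 and 6.39 CPM in GRdim/dim replicates 1 to 3. The genotypes overlapped, and the highest GRdim/dim lung was replicate 2, not replicate 1. The log2 fold change was 0.42 (SE 0.31, edgeR adjusted *p* = 0.742, DESeq2 adjusted *p* = 0.813). It was 0.22 without GRdim/dim replicate 2 and 0.70 without GR+/+ replicate 2. None of its 31-base windows occurs in another of these family genes, so its counts are the least open to such mixing among the 8 members. Whether its fold change differs from those of the other members was not tested.

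**Figure D3:**
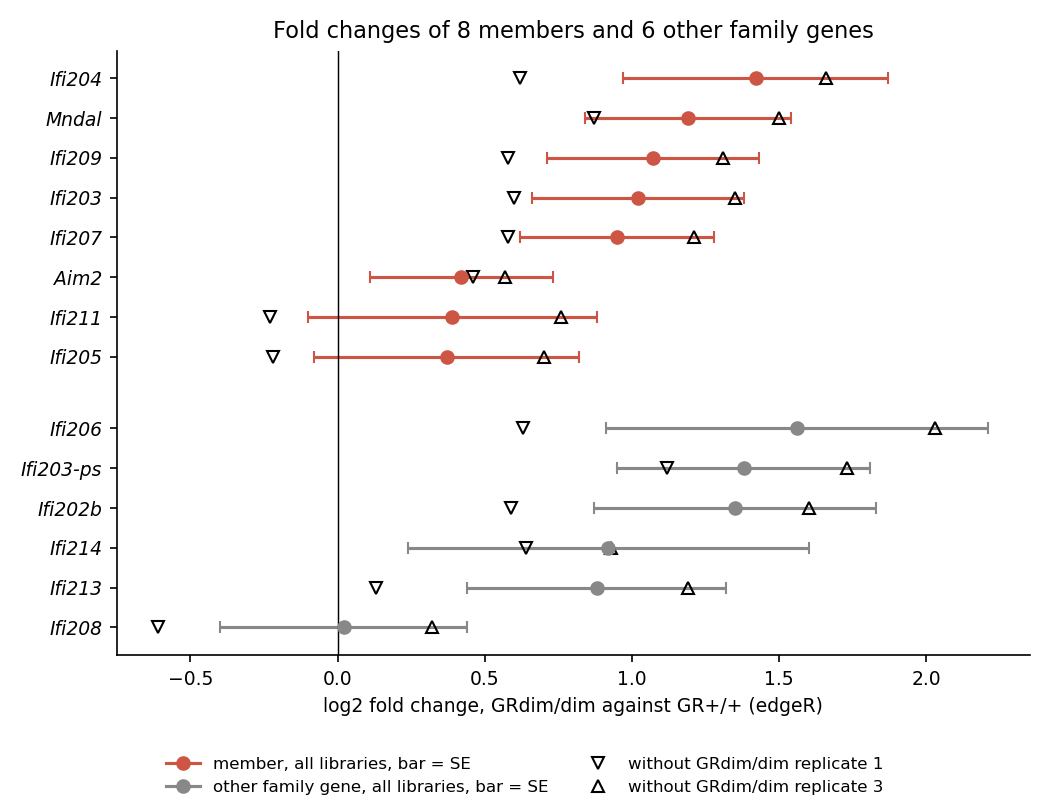
edgeR log2 fold changes (x axis, GRdim/dim against GR+/+) of the 8 members (red) and 6 other family genes (grey), with bars of 1 SE. Open triangles give the value without GRdim/dim replicate 1 (pointing down) or replicate 3 (pointing up). Leaving out replicate 1 moves every gene but *Aim2* to the left, and *Ifi205*, *Ifi211* and *Ifi208* to below 0.

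Levels can be compared between members only per length. Per kilobase of gene length in the file, mean levels in GR+/+ lungs were 6.26 CPM for *Mndal*, 3.77 for *Ifi203*, 3.40 for *Ifi207*, 2.13 for *Ifi209*, 1.76 for *Aim2*, 1.59 for *Ifi204*, 1.17 for *Ifi211* and 1.04 for *Ifi205*. In GRdim/dim lungs *Mndal* stood at 14.2, *Ifi203* at 7.65, *Ifi207* at 6.55, *Ifi209* at 4.47 and *Ifi204* at 4.23 CPM per kilobase, above *Aim2* at 2.34, *Ifi211* at 1.52 and *Ifi205* at 1.34. The means of *Ifi204* and *Aim2*, genes of similar length (3561 and 3501 bases), thus changed order between the genotypes. Single lungs did not all follow. *Ifi204* was already above *Aim2* in GR+/+ replicate 1 (5.68 and 5.26 CPM). It was below *Aim2* in GRdim/dim replicate 2 (7.73 and 10.3 CPM), and GRdim/dim replicate 1 held 61.7% of the GRdim/dim total of *Ifi204*. Neighbours in either order lay close, and their order was not tested.

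The spread among lungs was common to most of the family. Measured from the GR+/+ mean of each gene on the log2 scale (0.5 CPM added), the median of the 8 members was -0.06, 0.41 and -0.30 in GR+/+ replicates 1, 2 and 3. It was 1.56, 0.72 and 0.17 in GRdim/dim replicates 1, 2 and 3. GRdim/dim replicate 1 was the highest of its genotype for 7 of 8 members and replicate 3 the lowest for 7 of 8. Among GR+/+ lungs, replicate 2 was the highest for 7 of 8 and replicate 3 the lowest for 7 of 8. Over the 28 pairs of members, Pearson's *r* across the 6 libraries ranged from 0.38 to 0.98 with a median of 0.79, a description of points that share their libraries and in part their sequence. The lowest pairs were *Ifi211* with *Aim2* (0.38) and *Ifi204* with *Aim2* (0.39). Without GRdim/dim replicate 1, 1 of 8 members kept an unadjusted *p* under 0.05 by edgeR and 0 were called by DESeq2, and the median log2 fold change was 0.58. Without GRdim/dim replicate 3, DESeq2 called 5 of 8 and the median was 1.26. Over all genes DESeq2 called 274 of 16150 in either direction with all libraries, 253 of 18834 without GRdim/dim replicate 1 and 384 of 16949 without GRdim/dim replicate 3.

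**Figure D4:**
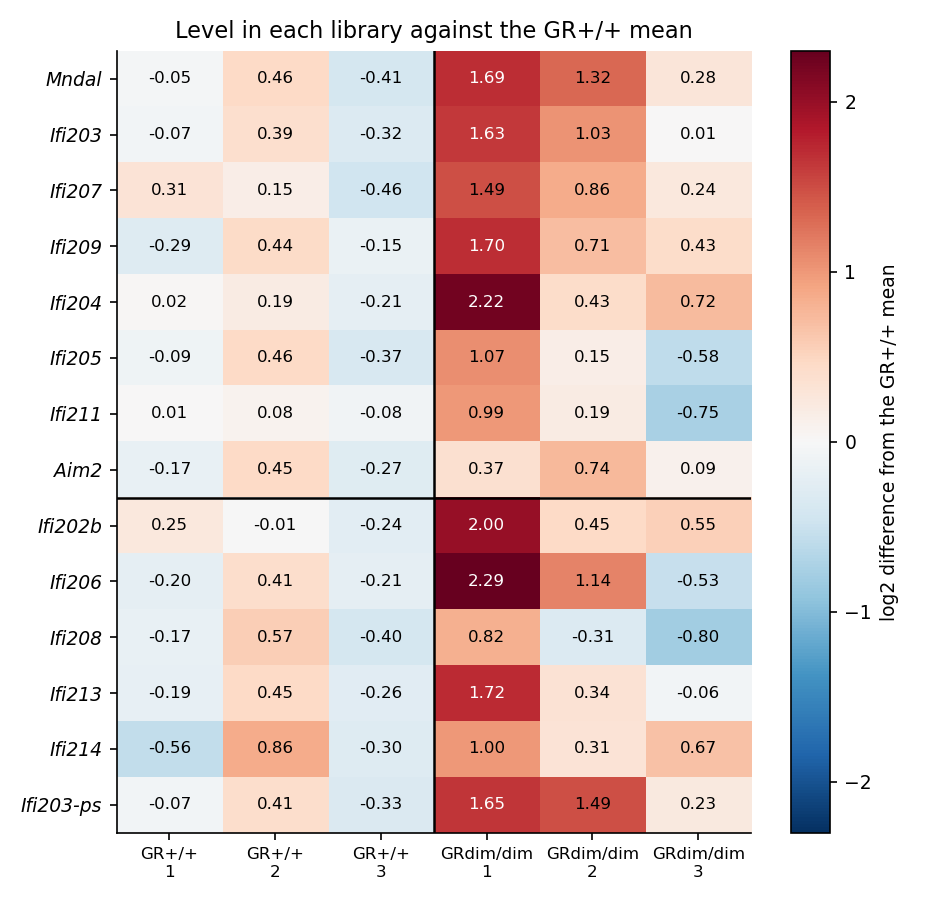
log2 difference of each gene (rows) in each lung (columns) from the mean of the 3 GR+/+ lungs, with 0.5 CPM added. The upper block holds the 8 members and the lower block the 6 other family genes. The column of GRdim/dim replicate 1 holds the highest value of all 6 lungs in every row except that of *Aim2*, and replicate 3 ranges from -0.80 for *Ifi208* to 0.72 for *Ifi204*.

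The 6 other family genes gave a similar picture. Their median log2 fold change was 1.13, and 3 of 6 had an unadjusted *p* under 0.05, all higher in GRdim/dim, with 0 called by edgeR or by DESeq2. *Ifi202b*, which encodes a protein with HIN domains and no pyrin domain, stood at 2.69, 2.16 and 1.78 CPM in GR+/+ and 10.2, 3.16 and 3.42 CPM in GRdim/dim replicates 1 to 3. Its libraries did not overlap (log2 fold change of 1.35, SE 0.48, edgeR adjusted *p* = 0.41, and 0.59 without GRdim/dim replicate 1). *Ifi206* had a log2 fold change of 1.56 (SE 0.65), and GRdim/dim replicate 1 held 65.3% of its GRdim/dim total. Without that lung the log2 fold change was 0.63. The pseudogene *Ifi203-ps*, 42.9% of whose windows occur in *Ifi203*, had a log2 fold change of 1.38 (SE 0.43). *Ifi208* was the exception, at 12.6 ± 4.81 CPM in GR+/+ and 12.7 ± 7.90 CPM in GRdim/dim lungs (SD, n = 3 each), a log2 fold change of 0.02 (SE 0.42). Its stretch around the ISRE core is identical to that of *Ifi213*, which had a log2 fold change of 0.88 (SE 0.44, edgeR adjusted *p* = 0.582, and 0.13 without GRdim/dim replicate 1).

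On a list of 13 genes of DNA sensing through STING, 12 were tested, with a median log2 fold change of 0.17. Of these, 1 had an unadjusted *p* under 0.05, *Irf7*, a transcription factor of type I interferon genes that interferon itself induces. *Irf7* stood at 17.6, 19.8 and 16.2 CPM in GR+/+ and 69.3, 24.4 and 34.1 CPM in GRdim/dim replicates 1 to 3 (log2 fold change of 1.25, SE 0.34, and 0.72 without GRdim/dim replicate 1). Its libraries did not overlap, and its adjusted *p* was 0.253 by edgeR and 0.0131 by DESeq2. *Tmem173*, which encodes STING, had a log2 fold change of 0.50 (SE 0.24, edgeR adjusted *p* = 0.557), and *Mb21d1*, which encodes the DNA sensor cGAS, one of -0.04 (SE 0.41, edgeR adjusted *p* = 0.986). *Mb21d1* stood at 5.30 ± 2.56 CPM in GR+/+ and 5.12 ± 2.08 CPM in GRdim/dim lungs (SD, n = 3 each), and its log2 fold change lay between -0.41 and 0.41 with one library left out. The remaining gene, *Trex1*, which encodes a DNA exonuclease and is named after its values were seen, was listed at 0 in every library and was not tested.

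On a list of 12 inflammasome genes, all tested, the median log2 fold change was 0.39, and 2 had an unadjusted *p* under 0.05, with 0 called by edgeR or DESeq2. *Il1b*, the cytokine matured by caspase-1, stood at 48.2, 32.9 and 30.2 CPM in GR+/+ and 73.2, 69.1 and 52.6 CPM in GRdim/dim replicates 1 to 3. Its libraries did not overlap (log2 fold change of 0.81, SE 0.22, edgeR adjusted *p* = 0.262, DESeq2 adjusted *p* = 0.0637). *Casp4*, which encodes caspase-11 of the non-canonical inflammasome, had a log2 fold change of 0.42 (SE 0.18, edgeR adjusted *p* = 0.5) and was also apart. The partners of AIM2 had smaller or less certain differences, with log2 fold changes of 0.55 (SE 0.32) for *Pycard*, 0.12 (SE 0.25) for *Casp1* and 0.19 (SE 0.23) for *Il18*.

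Interferon transcripts were hardly seen. Of 17 genes for interferons, their receptors and signaling, 7 were listed at 0 in all libraries, *Ifnb1* among them, and 0 of the 9 tested had an unadjusted *p* under 0.05 or were called by edgeR or DESeq2. The receptor subunit gene *Ifnar1* had a log2 fold change of 0.24 (SE 0.17). Of 24 interferon-stimulated genes, all tested, 23 had a log2 fold change above 0, with a median of 0.80. An unadjusted *p* under 0.05 was reached by 11, all higher, and DESeq2 called 2, *Isg15* and *Oas2*. edgeR called 0. *Oas2*, which encodes an RNA-sensing synthetase, stood at 9.92, 20.1 and 10.6 CPM in GR+/+ and 68.4, 23.6 and 25.4 CPM in GRdim/dim replicates 1 to 3 (log2 fold change of 1.53, SE 0.44, and 0.86 without GRdim/dim replicate 1). *Isg15*, a ubiquitin-like modifier, had a log2 fold change of 1.17 (SE 0.35, DESeq2 adjusted *p* = 0.0425). The other 9 were *Oas1a*, *Oas3*, *Oasl1*, *Oasl2*, *Xaf1*, *Bst2*, *Ifi44*, *Rtp4* and *Dhx58*, with log2 fold changes from 0.63 for *Bst2* to 2.28 for *Ifi44*, and from 0.21 for *Xaf1* to 0.59 for *Oas3* without GRdim/dim replicate 1.

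The sum of the interferon-stimulated genes moved with GRdim/dim replicate 1 and less with the other lungs. It was 516, 563 and 560 CPM in GR+/+ and 1416, 592 and 597 CPM in GRdim/dim replicates 1 to 3. On the log2 scale from the GR+/+ mean, the summed members and interferon-stimulated genes stood at 1.59 and 1.37 in GRdim/dim replicate 1. They stood at 0.95 and 0.12 in GRdim/dim replicate 2 and at 0.15 and 0.13 in GRdim/dim replicate 3. The part of interferon signaling in the members' levels was not tested.

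Levels of cell type markers moved as well. The 7 neutrophil markers summed to 466, 326 and 240 CPM in GR+/+ and 1081, 341 and 479 CPM in GRdim/dim replicates 1 to 3. Of the 6 tested, 2 had an unadjusted *p* under 0.05, *Retnlg* and *S100a9*, and DESeq2 called 1, *Retnlg*. The log2 fold change of *S100a9* was 0.95, and 0.36 without GRdim/dim replicate 1. The 10 B cell markers summed to 92.9, 190 and 158 CPM in GR+/+ and 218, 746 and 612 CPM in GRdim/dim replicates 1 to 3. Of these, 7 had an unadjusted *p* under 0.05, all higher, among them *Cd79a*, *Ighm* and *Igkc*, and DESeq2 called 1, *Igkc* (adjusted *p* = 1.82e-05). For NK cells 6 of 10 markers did (*Klrb1c*, *Klrd1*, *Gzma*, *Gzmb*, *Klre1*, *Nkg7*) and for T cells 4 of 10 (*Cd3d*, *Cd3e*, *Lck*, *Trac*), all higher, with sums of 11.7 to 29.5 against 33.8 to 54.8 CPM and of 52.5 to 107 against 95.5 to 122 CPM. DESeq2 called 1 T cell marker, *Trac*, and 0 NK cell markers.

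The sums of the other myeloid marker lists overlapped between the genotypes, as did those of the neutrophil markers. Of 12 monocyte markers, 11 had a log2 fold change above 0, and the median was 0.40. At an unadjusted *p* under 0.05, 4 were higher (*Ly6c2*, *Itgam*, *Plac8*, *Ms4a4c*) and 1, *Ace*, was lower. The monocyte sums of 1153 to 2217 CPM in GR+/+ and 1062 to 1513 CPM in GRdim/dim were mostly *Ace*, which endothelium also expresses. Alveolar macrophage markers summed to 553 to 621 and 545 to 646 CPM, with 1 of 10 higher (*Car4*) and 1 lower (*Chil3*) by the same measure. Mean *Car4* was 186 CPM in GR+/+ and 307 CPM in GRdim/dim, and mean *Chil3* 253 and 138 CPM, so these sums combine opposite differences. Dendritic cell markers summed to 108 to 156 and 129 to 179 CPM, with 4 of 9 higher (*Cd209a*, *Itgax*, *Siglech*, *Ccr7*). Endothelial markers (2526 to 3835 and 3013 to 3393 CPM, 1 of 7 higher, *Cldn5*, and 1 lower, *Kdr*), alveolar type 1 and 2 markers (17568 to 25930 and 16950 to 26793 CPM, 0 of 7) and club cell markers (15077 to 29504 and 21235 to 27415 CPM, 0 of 3) were those of lung tissue in every library. In the lists of this paragraph, DESeq2 called *Ccr7* and *Cldn5* higher and *Chil3* lower. It called no monocyte, alveolar type 1 and 2 or club cell marker. No marker gene was at 0 in all libraries. Their part in the members' levels was not tested.

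**Figure D5:**
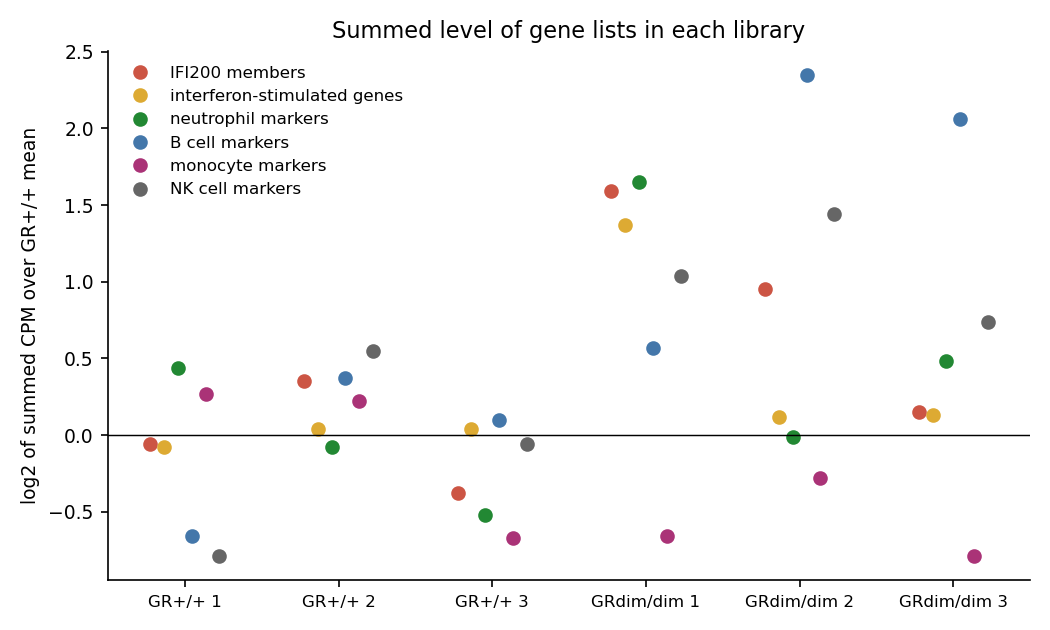
Summed CPM of 6 gene lists in each lung, as log2 of the ratio to the mean of the 3 GR+/+ lungs (y axis). Each point is one list in one lung, and the monocyte sum is mostly *Ace*. In GRdim/dim replicate 1 the members (1.59), interferon-stimulated genes (1.37) and neutrophil markers (1.65) stand together. In the same order they stand at 0.95, 0.12 and -0.01 in replicate 2 and at 0.15, 0.13 and 0.48 in replicate 3.

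Among 12230 other genes with a mean of at least 5 CPM, those most like the mean log2 level of the members across the 6 libraries were *Dock4*, a guanine nucleotide exchange factor (*r* = 0.996), *Zfp422* (0.989), *Spats2* (0.985), *Clasp2*, a microtubule-binding protein (0.983), and *Sp100*, a nuclear body protein induced by interferon (0.981). Their log2 fold changes were smaller than the members' median, from 0.20 for *Spats2* to 0.59 for *Sp100*, and 0 of 5 had an unadjusted *p* under 0.05 by edgeR. Of the other family genes above that level, *Ifi213* ranked at 32 (*r* = 0.959) and *Ifi208* at 1102 (*r* = 0.694). With 6 libraries and so many candidates, high values of *r* arise readily, and they describe likeness only.

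Sex was not balanced between the genotypes. By the level of *Xist* against Y-linked genes, GR+/+ replicate 1 and GRdim/dim replicates 1 and 3 stood on the male side. With that score as a covariate in edgeR, 4 of 8 members had an unadjusted *p* under 0.05 and the median log2 fold change was 0.94. Single members moved in both directions, *Ifi204* from 1.42 to 1.05 and *Mndal* from 1.19 to 1.23. The part of sex in the members' levels was not tested. Total counts per library were 15687734 to 32082940, and a member held 16 to 1443 counts in a library.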

How the data were processed

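RNA from lung tissue of each mouse was sequenced by the authors after poly(A) capture. The deposited table holds raw read counts per gene, whole numbers without normalization, with gene coordinates and length. The submitters' processing notes name DESeq2 and the build mm10. Which aligner, counter, annotation release and strand setting were used is not given in the sources used here. All 14 family genes have the same coordinates in GENCODE M21 (GRCm38). Groups and replicate numbers follow the sample titles, and nothing was pooled. Replicates differed by more than sampling noise, so none was counted as a duplicate.

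Genotypes were compared in R 4.3.3 with edgeR 4.0.16 by the quasi-likelihood test (glmQLFTest after a robust glmQLFit), with TMM scaling and filterByExpr. The *p*-values were adjusted by the Benjamini-Hochberg method over 16568 genes. DESeq2 1.42.0 was run with default settings as an alternative. Single members were also compared by two-sided exact permutation of log2 CPM over the 20 splits of 6 libraries. Thresholds were an adjusted *p* of 0.05 and a log2 fold change of 0.5. Levels are CPM with TMM scaling. Fold changes are on the scale of the fitted model. Promoters were taken from RefSeq (GRCm38.p6), and shared sequence from GENCODE M21 transcripts in windows of 31 bases.

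The genes named were every member and every other annotated family gene in the table. From the pathway and marker lists, those with an unadjusted edgeR *p* under 0.05 were named, except some B cell markers. *Tmem173*, *Mb21d1*, *Pycard*, *Casp1*, *Il1b*, *Il18*, *Ifnar1* and *Ifnb1* were named in any case, and *Trex1* was added after its values were seen. Also named were the 5 genes most correlated with the members, and *Cadm3* within the cluster. One listed gene is not reported here. The members and gene lists were chosen with earlier results of these data known. Protein sequences were not used here.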

Additional observations from a re-analysis of the deposited data

How the results depend on the processing

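The median log2 fold change of the 8 members, 0.99, was 0.90 to 1.01 under RLE scaling, both other filters on low counts, DESeq2, the replicate block, the sex covariate and the ratio of summed counts, and 0.58 (without GRdim/dim replicate 1) to 1.26 with one library left out. edgeR called 0 members in each of these settings, also with one library left out (lowest 0, highest 0), except with no filter on low counts, where it called 5, and DESeq2 called 2. Over all genes, edgeR called 28, with no filter 522, and DESeq2 274. The cause was not tested. Members with an unadjusted *p* under 0.05 numbered 5, and 1 (without GRdim/dim replicate 1) to 5 with one library left out. The alternatives for that count, for members called by DESeq2 and for members without overlap were added after the data had been seen. With one library left out, DESeq2 called 0 to 5 members, with 0 without GR+/+ replicate 1, GR+/+ replicate 3 or GRdim/dim replicate 1. Members with every GRdim/dim lung above every GR+/+ lung, 1 with all libraries, were 1 to 6 (6 without GRdim/dim replicate 3), where the share over all genes also grew from 7.77% to between 11.5% and 14.9%. *Ifi205* ranged from -0.22 to 0.70 and *Ifi211* from -0.23 to 0.76 with one library left out, both turning without GRdim/dim replicate 1. *Ifi208* was -0.11 with the replicate block, -0.07 with the sex covariate and -0.61 to 0.37 with one library left out. *Mb21d1* ranged from -0.41 to 0.41 and *Cadm3* from -0.43 to 0.09. No other named gene changed direction under these settings.

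Deviations of same-numbered libraries correlated at 0.216, 0.0312 and -0.0704, and those of libraries with unlike numbers at -0.276 to 0.21. With 3 libraries a genotype these values cannot settle whether the numbers pair the libraries. With the replicate block edgeR called 34 genes and 0 members, and 5 members kept an unadjusted *p* under 0.05. GR+/+ replicate 3 and GRdim/dim replicates 2 and 3 correlated best with another number. The p-values measure the spread among 3 lungs a genotype, and *Ifi211*, with 16 counts in one library, is the member where depth limits the value most.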
